A study of Mus musculus with 4 samples.

Results

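Chemokine ligands are small secreted proteins that draw leukocytes into tissues, and in this account they are all protein-coding genes named Ccl or Cxcl with a number, plus Cx3cl1 and Xcl1, with Cxcl12 left out. The rule found 38 such genes among 25732 gene symbols named in the files. They were read in stromal cells of adult C57BL/6 mouse prostate, from proximal ducts (nearest the urethra) and distal ducts (the tips of the tree), with 2 libraries per region, and the labels name no treatment. In both regions the cells had been gated by flow cytometry as Sca-1 positive and as CD24, CD49f and lineage negative, with the lineage markers not listed in the labels. The libraries carry the numbers 2 and 3 in each region and are called proximal 2, proximal 3, distal 2 and distal 3. Values are FPKM, which scale mapped fragments by transcript length and library size, summed here per gene. No label says that the libraries came from separate animals, and p-values then rest on the spread between libraries alone, which could be technical.

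Chemokines are grouped by the spacing of their first cysteines into CC, CXC, CX3C and XC ligands, and they act through receptors coupled to G proteins on leukocytes. Inflammatory members are switched on by interleukin-1, tumour necrosis factor or interferon, with NF-kB as a main transcription factor, while homeostatic members are made constantly and place lymphocytes and dendritic cells. Fibroblasts are a known source of the monocyte attractants Ccl2 and Ccl7 and of the neutrophil attractant Cxcl1. Promoter sequences are shown for 3 neutrophil attractants of the same cluster, for the interferon-inducible Cxcl10, and for Cxcl14, the highest of these ligands in proximal 2. The sequences are the 250 bases before the annotated start, on the gene's own strand, from RefSeq (GRCm38.p6, the assembly of mm10), and capitals mark the motifs searched.
Cxcl1, chr5:90890995-90891244, plus strand: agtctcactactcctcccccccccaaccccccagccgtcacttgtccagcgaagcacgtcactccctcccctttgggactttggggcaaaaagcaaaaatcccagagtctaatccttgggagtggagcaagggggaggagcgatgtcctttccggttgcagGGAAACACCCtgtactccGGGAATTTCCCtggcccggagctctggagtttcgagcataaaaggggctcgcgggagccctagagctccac
Cxcl2, chr5:90903649-90903898, plus strand: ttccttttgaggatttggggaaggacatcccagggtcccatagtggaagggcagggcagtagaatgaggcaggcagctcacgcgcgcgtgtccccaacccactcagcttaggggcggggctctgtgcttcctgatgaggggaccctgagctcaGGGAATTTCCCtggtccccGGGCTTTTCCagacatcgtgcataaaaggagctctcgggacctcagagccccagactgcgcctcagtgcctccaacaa
Cxcl3, chr5:90785851-90786100, plus strand: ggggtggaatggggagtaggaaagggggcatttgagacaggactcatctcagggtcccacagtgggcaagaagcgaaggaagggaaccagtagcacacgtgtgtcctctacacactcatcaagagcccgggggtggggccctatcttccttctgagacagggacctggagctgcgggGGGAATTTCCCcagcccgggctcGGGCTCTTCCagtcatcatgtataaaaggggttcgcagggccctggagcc
Cxcl10, chr5:92348890-92349139, minus strand: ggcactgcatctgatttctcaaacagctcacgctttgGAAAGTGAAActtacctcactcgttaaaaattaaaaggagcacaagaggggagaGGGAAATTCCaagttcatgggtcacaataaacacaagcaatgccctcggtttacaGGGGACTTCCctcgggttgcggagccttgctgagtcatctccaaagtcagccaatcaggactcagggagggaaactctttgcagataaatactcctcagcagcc
Cxcl14, chr13:56296552-56296801, minus strand: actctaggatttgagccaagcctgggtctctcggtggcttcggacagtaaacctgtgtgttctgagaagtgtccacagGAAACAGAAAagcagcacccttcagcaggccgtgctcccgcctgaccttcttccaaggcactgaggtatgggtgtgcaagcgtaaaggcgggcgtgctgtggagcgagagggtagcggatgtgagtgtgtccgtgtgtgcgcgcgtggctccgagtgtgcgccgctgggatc

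Motifs were looked for on both strands in these 250 bases, and 26 of the 38 members were found in the promoter table by symbol. Among those not found were Ccl2, Ccl7, Ccl4, Ccl5, Ccl11, Cxcl16 and Cxcl5, so their promoters were not searched. A form of the NF-kB binding site (GGG, then 3 bases of any kind, then TTCC) was found in 7 of the 26 members and in 4.65% of all 32851 promoters. The members were Cxcl1, Cxcl2, Cxcl3, Cxcl10, Ccl1, Ccl9 and Ccl20, of which Ccl1, Ccl9 and Ccl20 stayed under 1 FPKM in every library. Its fixed form, with AAT as those 3 bases and so contained in the first motif, was found in 3 members (Cxcl1, Cxcl2 and Cxcl3) and in 0.0852% of all promoters. The core of the interferon-stimulated response element (GAAA, then 2 bases of any kind, then GAAA) was found in 3 members (Cxcl10, Cxcl14 and Ccl19) and in 2.98% of all promoters. In the Cxcl1 promoter the fixed form ends 62 bases before the start, in Cxcl2 88 bases and in Cxcl3 64 bases before it. A member was counted if any of its promoters held the motif, while the percentages are shares of single promoters, so these are unlike measures. A match of letters is a description and was not tested as a binding site.

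Before the ligands, the cells were checked against their gate. Sca-1 (Ly6a) stood at 687 and 738 FPKM in proximal and at 1016 and 868 FPKM in distal libraries, and the fibroblast receptor Pdgfra at 133 and 61.7 FPKM in proximal and 97.9 and 82.6 FPKM in distal libraries. The pan-leukocyte gene Ptprc did not exceed 0.120 FPKM in any library, and Adgre1, Cd3e, Nkg7 and S100a9 were at or near 0. The highest leukocyte markers were the neutrophil gene S100a8 (0.359 FPKM in proximal 2, 5.60 in proximal 3, 1.63 in distal 2 and 12.5 in distal 3), Cd74 (2.58 and 3.96 FPKM in proximal and 9.56 and 5.67 FPKM in distal libraries) and Cd14 (4.76 and 7.06 FPKM in proximal and 4.40 and 5.88 FPKM in distal libraries). Cd52 stood at 0.814 and 3.98 FPKM in proximal and 0.211 and 0.0936 FPKM in distal libraries, and H2-Aa at 1.19 and 1.14 FPKM in proximal and 2.89 and 1.44 FPKM in distal libraries. The 18 leukocyte markers summed to 13.1 and 26.7 FPKM in proximal and to 22.9 and 31.2 FPKM in distal libraries, with 3 of them listed at 0 throughout. The 13 epithelial markers summed to 143 FPKM in proximal 2, 732 in proximal 3, 150 in distal 2 and 258 in distal 3, so proximal 3 stood apart although the gate should remove such cells. The endothelial, smooth muscle and nerve marker sums were 9.79, 288 and 3.91 FPKM in proximal 2, 9.56, 161 and 7.59 in proximal 3, 10.6, 334 and 6.83 in distal 2, and 9.37, 222 and 7.88 in distal 3. The epithelial gate gene Cd24a was at 8.06 and 54.6 FPKM in proximal and 9.64 and 19.1 FPKM in distal libraries. Between 10132 and 11439 genes per library reached 1 FPKM. The files hold no fragment totals, so depth is unknown.

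Of the 38 ligands, 6 were listed at 0 in every library, 13 stayed above 0 and under 1 FPKM, and 19 reached 1 FPKM in at least 1 library. A gene was tested if it had at least 1 FPKM in at least 2 of the 4 libraries, which 14 ligands did, and no tested ligand passed through 1 region alone. All 38 together summed to 1522 FPKM in proximal 2, 2940 in proximal 3, 3555 in distal 2 and 6447 in distal 3. Ccl2, Ccl7, Cxcl1 and Cxcl10 held 62.0% and 87.1% of that sum in the proximal and 90.5% and 93.0% in the distal libraries. These 4 genes and Cxcl14 were the 5 ligands over 100 FPKM in every library.

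**Figure D1:**
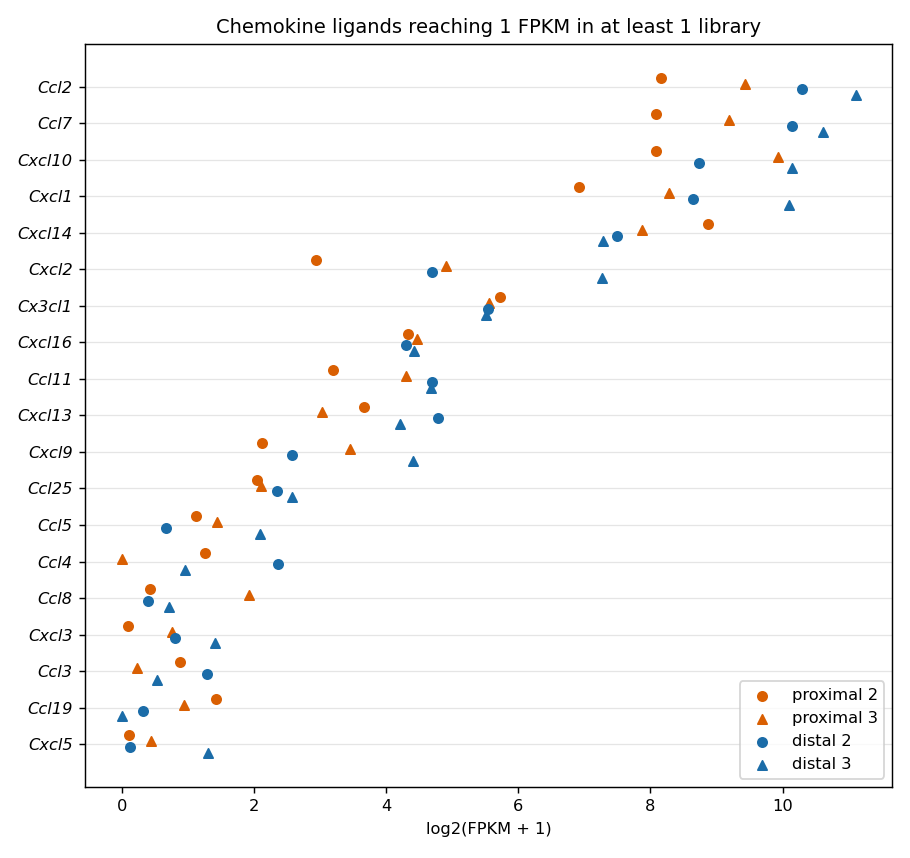
Each point is 1 library's level of a chemokine ligand on the log2(FPKM + 1) scale, for the 19 ligands that reached 1 FPKM in at least 1 library, ordered by mean FPKM (proximal orange, distal blue, circles for libraries numbered 2 and triangles for those numbered 3). For Ccl2, Ccl7 and Cxcl1 both proximal points lie left of both distal points, and for Cxcl14 both lie right of them.

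**Figure D2:**
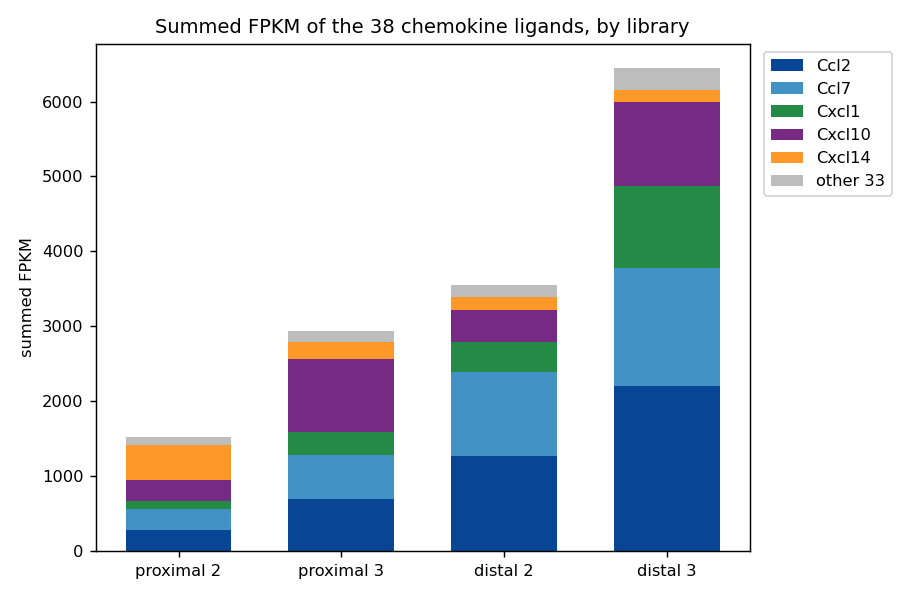
Bars give the summed FPKM of the 38 ligands in each library, split into 5 genes and the other 33. The sum is lowest in proximal 2 (1522 FPKM) and highest in distal 3 (6447 FPKM), and Cxcl14 makes up 30.6% of the bar in proximal 2 and 2.41% in distal 3.

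The comparison of regions asks which signals differ between proximal and distal stroma. Most expressed ligands had lower proximal values: 11 of the 14 tested had a negative log2 difference (proximal minus distal), as did 39.6% of all 11253 tested genes. Both proximal values lay below both distal values for 6 of 14 ligands, against 8.66% of all tested genes, and above them for 2 of 14, against 12.9%. The median log2 difference of the 14 was -0.82, and that of all tested genes was 0.09. None of the 14 passed the test (limma on log2(FPKM + 1), Benjamini-Hochberg adjusted p of 0.99991 for each), and none of all tested genes did (0% called, 254 genes higher and 101 lower in proximal stroma at an unadjusted p under 0.05). At an unadjusted p under 0.05 there were 4 ligands with lower proximal values, against 0.898% of tested genes, and 0 with higher ones, against 2.26%. This fit held no term for library number. Across genes, libraries of the same number correlated at 0.952 in both pairs, those of the same region at 0.869 (proximal) and 0.911 (distal). With the number as a block, which no label ties to an animal or day, 463 of 11253 genes and 6 of 14 ligands passed. The ligands and gene lists were chosen with earlier results of these data known, so these counts are descriptions. In sorted bulk RNA, fewer cells of a type and less RNA per cell cannot be told apart.

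The monocyte attractants Ccl2 and Ccl7, both ligands of CCR2, were the most abundant chemokines of distal stroma and had lower values in proximal stroma. They are neighbours on chromosome 11, Ccl2 at 82035571 to 82037453 and Ccl7 at 82045712 to 82047525 (mm10, both on the plus strand). Ccl2 stood at 284 FPKM in proximal 2, 693 in proximal 3, 1261 in distal 2 and 2207 in distal 3. The proximal mean was 489 ± 289 FPKM and the distal mean 1734 ± 669 FPKM (SD over 2 libraries each), with a log2 difference of -1.91 ± 0.56 (SE; unadjusted p = 0.0180, adjusted p = 0.99991, limma). In rank among the tested genes it was 154th and 79th in the proximal libraries and 33rd and 11th in the distal libraries. The regions did not overlap, although proximal 3 was 2.44 times proximal 2, and distal 3 was 1.75 times distal 2.

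Ccl7 followed the same order of libraries. It stood at 269 FPKM in proximal 2, 584 in proximal 3, 1134 in distal 2 and 1571 in distal 3, with no overlap of the regions. The log2 difference was -1.75 ± 0.48 (SE; unadjusted p = 0.0141, adjusted p = 0.99991, limma), the smallest unadjusted p among the 14 ligands. The ratio of Ccl2 to Ccl7 was 1.05 and 1.19 in the proximal and 1.11 and 1.40 in the distal libraries. The pair thus lay in similar proportion in all 4 libraries, at levels that differed several fold.

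The other members of this chromosome 11 cluster were far lower. Ccl11 (eotaxin, the eosinophil attractant) stood at 8.16 FPKM in proximal 2, 18.7 in proximal 3, 24.8 in distal 2 and 24.6 in distal 3. The distal pair was nearly equal and above both proximal values, with a log2 difference of -0.94 ± 0.48 (SE; unadjusted p = 0.104, adjusted p = 0.99991, limma). It was -0.39 without proximal replicate 2 and -1.49 without proximal replicate 3. Ccl8, another monocyte attractant, was at 0.340 FPKM in proximal 2, 2.80 in proximal 3, 0.309 in distal 2 and 0.639 in distal 3, and was not tested. Ccl12 did not exceed 0.0956 FPKM, and Ccl1 was listed at 0 in every library.

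Neutrophil attractants of the CXCR2 group, Cxcl1, Cxcl2, Cxcl3 and Cxcl5, lie within 1 cluster on chromosome 5. All had lower values in proximal 2 than in any other library, as did Ccl2, Ccl7, Ccl11, Cxcl9 and Cxcl10. The neutrophil gene S100a8 was also lowest in proximal 2, while S100a9 was listed at 0 in every library. The part of neutrophils was not tested. Cxcl1, at 90891241 to 90893115 on the plus strand, stood at 120 FPKM in proximal 2, 309 in proximal 3, 400 in distal 2 and 1095 in distal 3. The regions did not overlap, but proximal 3 came close to distal 2, and the log2 difference was -1.78 ± 0.68 (SE; unadjusted p = 0.0456, adjusted p = 0.99991, limma). Within number 2 the log2 difference was -1.73 and within number 3 it was -1.82. Leaving out proximal replicate 2 gave -1.10 and leaving out distal replicate 3 gave -1.05, while it was -2.46 without proximal replicate 3 and -2.50 without distal replicate 2.

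Cxcl2, at 90903871 to 90905938 beside Cxcl1, was lower in level in every library and spread more widely. It stood at 6.67 FPKM in proximal 2, 29.0 in proximal 3, 24.9 in distal 2 and 153 in distal 3, so the regions overlapped. Its log2 difference of -2.06 ± 1.05 (SE; unadjusted p = 0.104, adjusted p = 0.99991, limma) was the most negative of the 14 ligands. Leaving out distal replicate 2 moved it to -3.35, past the test's threshold, and leaving out distal replicate 3 moved it to -0.77. The ratio of Cxcl1 to Cxcl2 was 18.0 and 10.7 in the proximal and 16.1 and 7.13 in the distal libraries, lower in both libraries numbered 3.

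The remaining genes of the cluster were near the lower limit of the data. Cxcl3, whose promoter carries the same fixed NF-kB motif as Cxcl1 and Cxcl2, stood at 0.0653 FPKM in proximal 2, 0.683 in proximal 3, 0.743 in distal 2 and 1.65 in distal 3. Cxcl5 stood at 0.0735 and 0.354 FPKM in the proximal and at 0.0898 and 1.46 FPKM in the distal libraries. Neither was tested, since each reached 1 FPKM in distal 3 only. Cxcl15, known from lung epithelium, was at 0.130 and 0.483 FPKM in proximal libraries and listed at 0 in both distal ones.

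**Figure D3:**
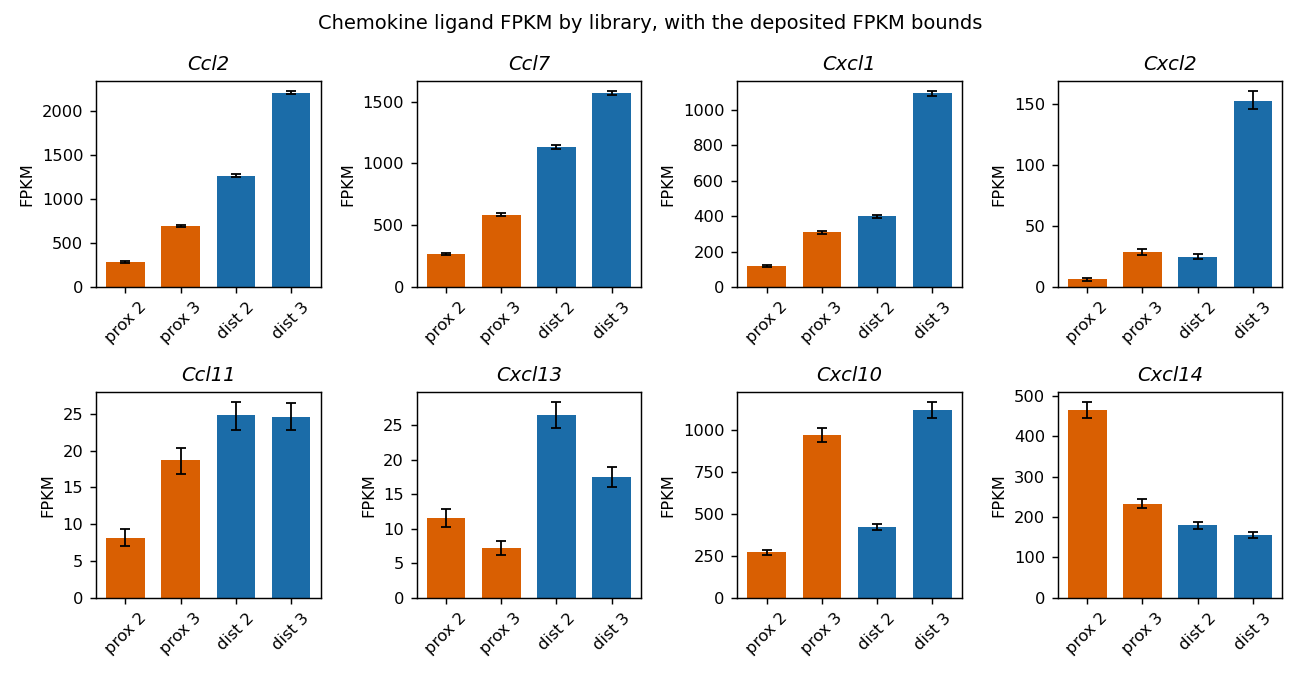
Bars are FPKM in each library (proximal orange, distal blue) for 8 ligands, and error bars are the lower and upper FPKM bounds that the authors deposited for the ligand's most abundant transcript, which cover estimation error within 1 library only. The distance between libraries of the same region is wider than these bounds for Ccl2, Ccl7, Cxcl1, Cxcl2, Cxcl10, Cxcl13 and Cxcl14. For Ccl11 it is wider in the proximal libraries only.

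The interferon-inducible CXCR3 ligands differed by library number more than by region. Cxcl10, on chromosome 5 at 92346638 to 92348889 (minus strand), stood at 271 FPKM in proximal 2, 975 in proximal 3, 423 in distal 2 and 1125 in distal 3. The regions overlapped, with a log2 difference of -0.42 ± 0.78 (SE; unadjusted p = 0.609, adjusted p = 0.99991, limma) that changed sign when proximal replicate 2 was left out (0.50) and when distal replicate 3 was left out (0.28). Proximal 3 was 3.60 times proximal 2, and distal 3 was 2.66 times distal 2. The library preparation does not mark strand, and Cxcl10 lies inside the span of Art3, so fragments from shared stretches cannot be told apart.

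Cxcl9, the neighbouring CXCR3 ligand, showed the same order of libraries at a far lower level. It stood at 3.35 FPKM in proximal 2, 9.91 in proximal 3, 4.96 in distal 2 and 20.2 in distal 3, a log2 difference of -0.71 ± 0.79 (SE; unadjusted p = 0.412, adjusted p = 0.99991, limma), which became 0.21 without distal replicate 3. Cxcl11, the third gene of this group, is annotated as a polymorphic pseudogene in the reference strain and is no member of the set. Its transcript stood at 0.407 and 0.759 FPKM in proximal and at 0.955 and 4.62 FPKM in distal libraries.

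Cxcl14 and Cxcl13 are homeostatic CXC ligands and went opposite ways in value. Cxcl14, a ligand made constantly by many epithelia and fibroblasts, lies on chromosome 13 at 56288643 to 56296551 (minus strand). It stood at 466 FPKM in proximal 2, 233 in proximal 3, 179 in distal 2 and 155 in distal 3, with no overlap, and its proximal mean was 350 ± 165 FPKM against a distal mean of 167 ± 16.6 FPKM (SD over 2 libraries each). The log2 difference was 0.98 ± 0.43 (SE; unadjusted p = 0.0673, adjusted p = 0.99991, limma), the largest positive one of the 14. It rested in part on proximal 2: without that library it was 0.48. Within number 2 it was 1.38 and within number 3 it was 0.59. For comparison, Cxcl12, which the set leaves out, stood at 577 and 748 FPKM in proximal and at 117 and 70.5 FPKM in distal libraries.

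Cxcl13, the B cell attractant that acts through CXCR5, stood at 11.6 FPKM in proximal 2, 7.16 in proximal 3, 26.5 in distal 2 and 17.5 in distal 3. Both proximal values lay below both distal values, and the log2 difference was -1.15 ± 0.43 (SE; unadjusted p = 0.0422, adjusted p = 0.99991, limma). It was -1.13 within number 2 and -1.18 within number 3. Unlike Ccl2, Ccl7 and Cxcl1, it was lower in both libraries numbered 3 than in those numbered 2.

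Both membrane-anchored chemokines were almost level across the 4 libraries. Fractalkine (Cx3cl1), on chromosome 8, stood at 51.5 and 45.9 FPKM in proximal and at 45.5 and 44.7 FPKM in distal libraries. Its log2 difference was 0.11 ± 0.30 (SE; adjusted p = 0.99991, limma) and became -0.02 under median ratio scaling, although both proximal values were above both distal values before scaling. Cxcl16, on chromosome 11, stood at 19.0 and 21.1 FPKM in proximal and at 18.7 and 20.5 FPKM in distal libraries, with a log2 difference of 0.03 ± 0.33 (SE; adjusted p = 0.99991, limma) that was -0.01 under quantile normalization and -0.09 under median ratio scaling. Its 2448-base transcript stood at 13.9 and 13.0 FPKM in proximal and 14.3 and 12.1 FPKM in distal libraries, and its 1692-base transcript at 5.08 and 8.03 FPKM in proximal and 4.40 and 8.40 FPKM in distal libraries. The shorter transcript was higher in both libraries numbered 3, whichever the region.

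Ligands made mainly by leukocytes, thymus or lymph node were low. Ccl3, Ccl4 and Ccl5, typical products of macrophages and T cells, stayed under 5 FPKM. Ccl4 stood at 1.39 and 0 FPKM in proximal and at 4.15 and 0.937 FPKM in distal libraries, and Ccl3 at 0.843 and 0.173 FPKM in proximal and 1.43 and 0.441 FPKM in distal libraries, so each was lower in the libraries numbered 3. Ccl5 stood at 1.17 and 1.72 FPKM in proximal and at 0.582 and 3.27 FPKM in distal libraries, overlapping fully. The log2 difference was -1.03 ± 0.69 for Ccl4 and -0.09 ± 0.59 for Ccl5 (SE), and with a pseudocount of 0.1 they were -2.44 and 0.01. Leaving out 1 library moved Ccl4 to between -1.74 (without distal replicate 3) and -0.33 (without distal replicate 2), with -1.66 without proximal replicate 2 and -0.40 without proximal replicate 3.

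Ccl25, which guides T cells to thymus and gut, stood at 3.12 and 3.29 FPKM in proximal and at 4.06 and 4.95 FPKM in distal libraries. The regions did not overlap, with a log2 difference of -0.39 ± 0.40 (SE; unadjusted p = 0.381, adjusted p = 0.99991, limma). Of that sum, a retained-intron transcript of 2461 bases held 2.25 and 1.30 FPKM in proximal and 1.70 and 1.92 FPKM in distal libraries, and transcripts of 1083 and 1058 bases held the rest. With that transcript alone the regions overlapped and the log2 difference was -0.04, which leaves 5 ligands, in place of 6, with both proximal values below both distal values.

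The CCR7 ligands Ccl19 and Ccl21, which guide dendritic cells and T cells in lymphoid tissue, had low values and were not tested. Ccl19 stood at 1.68 FPKM in proximal 2, 0.908 in proximal 3, 0.249 in distal 2 and 0 in distal 3. Ccl21b stood at 0.844 and 0.672 FPKM in proximal and at 0.299 and 0.237 FPKM in distal libraries, and Ccl21c at 0.222 and 0.136 FPKM in proximal and 0.0370 and 0.0466 FPKM in distal libraries. Ccl21a overlapped between regions, at 0.204 and 0.0621 FPKM in proximal and 0.0902 and 0.188 FPKM in distal libraries. Together Ccl19, Ccl21a, Ccl21b and Ccl21c summed to 2.95 and 1.78 FPKM in proximal and to 0.674 and 0.471 FPKM in distal libraries, without overlap. The Ccl21 genes are near-identical copies on chromosome 4 and its scaffolds, and Ccl19 was read at 2 loci, so how fragments were split among copies is uncertain.

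The other ligands gave little or no signal. Cxcl17, known from mucosal epithelium, was at 0.571 and 0.668 FPKM in proximal libraries and listed at 0 in both distal ones, and Ccl6, a myeloid ligand, was at 0.231 and 0.570 FPKM in proximal and 0.106 and 0.0236 FPKM in distal libraries. Ccl17, a ligand of CCR4, was at 0.674 and 0.640 FPKM in proximal and 0.511 and 0.181 FPKM in distal libraries. Ccl20, the ligand of CCR6, did not exceed 0.434 FPKM (distal 3), and Ccl9, Ccl22, Ccl24 and Ccl28 did not exceed 0.160, 0.0203, 0.0655 and 0.0505 FPKM. Listed at 0 in all libraries were Ccl1, Ccl26, Ccl27, Ccl27a, Ccl27b and Xcl1. Genes with failed or capped estimates had been left out, so these values of 0 were not flagged as failed. A listed 0 is still not a measure of absence, since depth is unknown.

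Many ligands differed by library number in the same direction in both regions. Of the 14 tested ligands 9 were higher in number 3 than in number 2 in both regions, against 25.5% of all tested genes, and 4 were lower in both (Ccl4, Cx3cl1, Cxcl13 and Cxcl14), against 59.0%. The 14 had a median log2 difference of number 3 minus number 2 of 0.67, and all tested genes one of -0.33. Epithelial markers moved the same way, 10 of 11 tested ones being higher in number 3 in both regions. Their part in the ligand values was not tested. The labels do not say what a number marks.

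**Figure D4:**
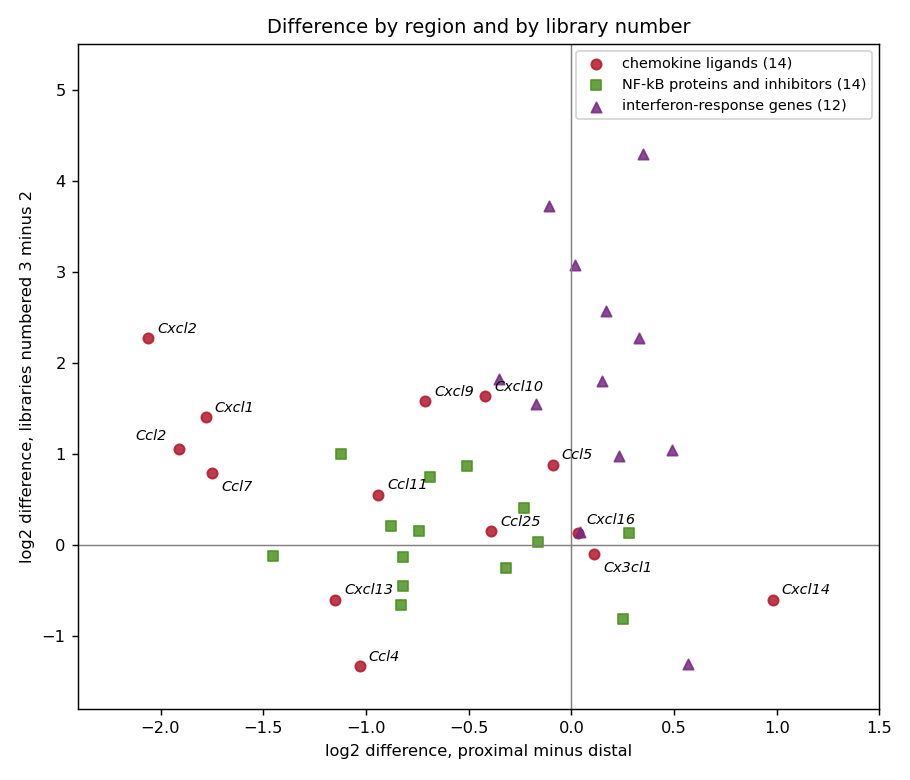
Each point is a gene, with the log2 difference of proximal minus distal stroma on the x axis and that of libraries numbered 3 minus 2 on the y axis, both on the log2(FPKM + 1) scale. Cxcl2, Cxcl1, Ccl2 and Ccl7 lie to the upper left, Cxcl9 and Cxcl10 nearer the interferon-response genes along the y axis, and NF-kB genes mostly left of 0.

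The signalling receptors of these ligands were near 0, while some atypical receptors were not. None of 17 signalling receptors, a list without that of Cxcl12, reached 1 FPKM in any library (highest 0.374 FPKM), and 5 of them were listed at 0 throughout. Among 5 atypical receptors, 2 were tested. Ackr3, which scavenges Cxcl12, stood at 78.4 and 124 FPKM in proximal and at 116 and 137 FPKM in distal libraries, and Ccrl2, which binds the attractant chemerin and does not signal like a classical receptor, stood at 25.5 and 49.5 FPKM in proximal and at 68.8 and 147 FPKM in distal libraries. Ccrl2 ordered the 4 libraries as Ccl2 and Ccl7 did, with a log2 difference of -1.47 ± 0.53 (SE; unadjusted p = 0.0371, adjusted p = 0.99991, limma).

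NF-kB proteins and inhibitors tended to lower values in proximal stroma, and interferon-response genes were near level by region. Of either list 0 genes passed the test (limma; 2 NF-kB and 0 interferon genes had an unadjusted p under 0.05). Of 14 NF-kB proteins and inhibitors 12 had negative log2 differences, and for 9 of them both proximal values lay below both distal values, against 8.66% of all tested genes (median -0.71). Nfkbie, an inhibitor that NF-kB itself induces, stood at 23.6 and 16.1 FPKM in proximal and at 49.9 and 61.1 FPKM in distal libraries, a log2 difference of -1.45 ± 0.36 (SE; unadjusted p = 0.00899, adjusted p = 0.91002, limma). Nfkb2, a subunit of the alternative pathway, stood at 34.6 and 80.0 FPKM in proximal and at 87.0 and 154 FPKM in distal libraries. By library number 5 of the 14 were higher in number 3 in both regions, against 25.5% of all tested genes, and 5 were lower, against 59.0%.

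Among 16 receptors and adaptors through which cytokines and microbial products induce chemokines, 0 passed the test (limma; 0 at an unadjusted p under 0.05) and 3 had both proximal values below both distal values, against 8.66% of all tested genes. The interleukin-1 receptor Il1r1 stood at 78.9 and 89.8 FPKM in proximal and at 106 and 159 FPKM in distal libraries, and the tumour necrosis factor receptor Tnfrsf1b at 8.68 and 19.1 FPKM in proximal and 14.0 and 28.2 FPKM in distal libraries. The list's median log2 difference was -0.18. All 16 were tested, against 0 of the 17 signalling chemokine receptors.

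Interferon-response genes followed library number. Of 12 such genes 11 were higher in number 3 in both regions, against 25.5% of all tested genes, and 0 had regions that did not overlap, against 8.66% of all tested genes lower and 12.9% higher in proximal stroma. Irf1, the exception, stood at 253 and 124 FPKM in proximal and at 209 and 67.8 FPKM in distal libraries, and the immunoproteasome gene Psmb8 at 25.0 and 44.1 FPKM in proximal and 14.6 and 37.1 FPKM in distal libraries. Ifit1, an antiviral gene chosen after its values were seen, stood at 9.36 and 283 FPKM in proximal and at 10.3 and 158 FPKM in distal libraries. The list's median log2 difference was 0.16 by region and 1.81 by number.

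Genes that act on chemokine mRNA or process chemokine proteins gave 0 calls (limma; 1 lower in proximal stroma at an unadjusted p under 0.05, against 0.898% of all tested genes). Of 11 such genes tested, 4 (Dpp4, Elavl1, Mmp14 and Adam17) had both proximal values below both distal values, against 8.66% of all tested genes. Dpp4, the protease that clips the ends of several chemokines, stood at 1.86 and 1.95 FPKM in proximal and at 6.03 and 6.32 FPKM in distal libraries, a log2 difference of -1.30 ± 0.40 (SE; unadjusted p = 0.0203, adjusted p = 0.99991, limma). Zc3h12a, an RNase that degrades inflammatory transcripts, stood at 6.77 and 18.9 FPKM in proximal and at 17.6 and 32.4 FPKM in distal libraries. Zfp36, which destabilises mRNAs with AU-rich ends and was chosen after its values were seen, was at 1326 and 580 FPKM in proximal and at 1353 and 351 FPKM in distal libraries, lower in both libraries numbered 3.

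Cell isolation can induce immediate early and heat shock genes, whose summed level was highest in proximal 2 and lowest in distal 3. The 13 genes summed to 23199 FPKM in proximal 2, 15648 in proximal 3, 18181 in distal 2 and 9539 in distal 3, with a median log2 difference of 0.71 by region (0.09 for all tested genes) and -0.66 by number (-0.33 for all tested genes). Of the 13, 5 had both proximal values above both distal values, against 12.9% of all tested genes, and 1 had both below, against 8.66%. Only 2 had a negative log2 difference, against 39.6% of all tested genes, and 0 passed the test (limma). By number 8 of the 13 were lower in number 3 in both regions, near the 59.0% of all tested genes. Fosb stood at 385 and 459 FPKM in proximal and at 235 and 201 FPKM in distal libraries, and Fos at 3311 and 1399 FPKM in proximal and 2084 and 519 FPKM in distal libraries. Ier3, chosen after its values were seen, ordered the libraries as Ccl2 and Ccl7 did, at 632 and 945 FPKM in proximal and 988 and 1275 FPKM in distal libraries. The part of cell handling in the ligand values was not tested.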

How the data were processed

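Libraries came from SMART-Seq v4 cDNA, primed at random and on poly(A), and the TruSeq DNA kit, and were read on a HiSeq instrument, per the labels' protocols. This chemistry does not mark strand. The submitters' processing notes name bcl2fastq 1.8.3, TopHat2 0.6, Cufflinks 0.0.6 and mm10. The authors deposited FPKM with bounds, and a coverage signal, for 63241 transcripts per library, per the file headers. PCR copies are not independent molecules, so the bounds cover estimation error only. FPKM holds no counts, so no count model was used.

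GENCODE M21 positions gave gene names to transcripts (55133, holding 96.27% of FPKM): by span and length similarity of at least 0.8, then by ends within 100 bp of exons of 1 gene, by similarity of at least 0.5 with no other gene at 0.25, or by containing 1 gene in at most 2 times its span. FPKM was summed per gene, and 7 genes with failed or capped estimates were left out. Genes with at least 1 FPKM in at least 2 libraries were tested as log2(FPKM + 1), which understates changes of low genes, with limma 3.58.1 in R 4.3.3 (a single term for region, moderated with a mean trend), two-sided, adjusted over 11253 genes at 0.05. The fit was tested on simulated data. With 2 libraries per region, the smallest exact permutation p is 0.333. Tables were handled in pandas 2.3.3 (Python 3.11.15). The members and all gene lists were chosen with earlier results of these data known, and the immediate early list was added after the files were read. Ligands reaching 1 FPKM in any library were named with every value. From each pathway list the text names the 2 genes with the largest difference, plus Ifit1, Zfp36 and Ier3, chosen after their values were seen. Alternatives were another pseudocount, no or a stricter filter, 2 scalings, the library number as a block, 1 transcript per gene, strict naming and leaving out each library.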

Additional observations from a re-analysis of the deposited data

How the results depend on the processing

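Under the alternatives that kept all 4 libraries, 99 of 109 values of single ligands kept their direction and stayed past or short of the threshold. Values near 0 changed sign: Ccl5 (0.01 with a pseudocount of 0.1), Cxcl16 (-0.01 under quantile normalization, -0.09 under median ratio scaling) and Cx3cl1 (-0.02 under median ratio scaling). Those scalings moved the median of all genes to -0.03 and -0.01 from 0.09 and left 1 ligand with both proximal values above both distal ones. Without a filter, 32 ligands had a median of -0.04, and all genes one of 0.05. Of these ligands 8 had both proximal values below both distal values and 10 above. The shares among all unfiltered genes were not counted. The block used only a shared number, which no label ties to an animal or day (deviations of the libraries numbered 2 correlated at 0.815 across genes). With this replicate block 463 genes were called (312 higher and 151 lower in proximal) and 6 ligands, all lower in proximal: Ccl2, Ccl4, Ccl7, Cxcl1, Cxcl2 and Cxcl13.

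Leaving out 1 library mixes region with number, and assumes that the lone library of a region varies like the others. Then 0 to 40 genes (40 without distal replicate 2, 26 without distal replicate 3) and 0 to 1 ligands (Cxcl2, without distal replicate 2) were called. The ligands' median lay between -1.10, with proximal replicate 3 left out, and -0.37, with proximal replicate 2 left out. Between 7 and 10 ligands lay below and 2 to 4 above. Leaving out a library can only keep or add such ligands, so these counts are no check of those from all 4 libraries. The log2 difference ranged from -0.81 to 0.62 for Ccl5, from -1.35 to 0.50 for Cxcl10, from -1.62 to 0.21 for Cxcl9 and from -0.04 to 0.10 for Cxcl16. It was -2.55 for Ccl2 and -2.30 for Ccl7 with proximal replicate 3 left out, and -1.27 and -1.19 with proximal replicate 2 left out. The cause was not tested. Depth is unknown, so values under 1 FPKM were read as levels only.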

Other observations

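Proteoglycans hold chemokines at cell surfaces and in matrix, and these carriers tended to lower values in proximal stroma. The list of 12 tested genes also held Ext1, Ext2 and Ndst1, enzymes that build the sugar chains of these carriers. Of the 12, 11 (all but Ext2) had a negative log2 difference, as did 39.6% of all tested genes. For 4 both proximal values lay below both distal values, against 8.66%. None passed the test (limma; 0 at an unadjusted p under 0.05). The glypican Gpc6 stood at 42.4 and 24.4 FPKM in proximal and at 70.0 and 58.2 FPKM in distal libraries, a log2 difference of -0.97 ± 0.39 (SE; unadjusted p = 0.0548, adjusted p = 0.99991). The syndecan Sdc3 stood at 38.3 and 5.79 FPKM in proximal and at 46.9 and 18.5 FPKM in distal libraries and overlapped. By library number 8 of 12 were lower in number 3 in both regions, near the 59.0% of all tested genes.

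The platelet chemokines Pf4 and Ppbp, whose symbols fall outside the naming rule, did not exceed 0.332 and 0.0661 FPKM. Pf4 was listed at 0 in both proximal libraries and read 0.332 FPKM in distal 2 and 0.295 in distal 3.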
